A study of Homo sapiens with 30 samples.

Results

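The comparison described here sets A549 cells treated for 2 days with GSK591 against untreated A549 cells, gene by gene, over all genes of a PRO-seq count table. Its members are 4 of the 30 libraries of the series, 2 labelled GSK591 2 days and 2 labelled as untreated controls, and all 58780 genes of the table, of which 22919 had enough counts to be tested. A549 is an established human lung adenocarcinoma line, and PRO-seq (precision run-on sequencing) reads the RNA that engaged RNA polymerases extend in permeabilised cells. GSK591 inhibits the arginine methyltransferase PRMT5 and was given at 1 µM. All samples, the controls included, carried 0.01% DMSO, and no group whose levels are given here received dexamethasone. The fit behind the p-values took in all 30 libraries, some of which received dexamethasone. The controls are labelled untreated with a time of 15 min, so they were not held in culture for a matched 2 days by their label. Side by side, levels are given from GSK591 for 4 days, GSK591 for 7 days and, for 2 days at the same 1 µM, MS023, which inhibits the Type I arginine methyltransferases. Each of these groups had 2 libraries. All are the same cell line. The labels do not say whether replicates were separate cultures, so p-values measure the spread between libraries, which may be technical.

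PRMT5 works with its partner WDR77 and places symmetric dimethyl groups on arginines of nuclear proteins. Its best known substrates are the Sm proteins, among them SNRPB, which form the core of the spliceosomal snRNPs, and histone tails. Inhibition of PRMT5 is known in several cancer lines to alter splicing, the MDM4 transcript among others, and with it the p53 pathway, and to slow the cell cycle.

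Total counts were 13069598 and 12438774 in the untreated libraries and 8892975 and 8876853 in the GSK591 libraries. Mitochondrial genes took 76.0% and 73.4% of untreated and 71.4% and 68.5% of GSK591 counts, which left 2541528 to 3314381 nuclear counts per library. Processed pseudogenes held 1.5% and 1.38% of nuclear counts in untreated and 1.25% and 1.24% in treated libraries. Log2 CPM correlated with r = 0.979 between the untreated replicates and 0.976 between the GSK591 replicates, across 11104 genes, which are not independent. All 11 markers of the line (keratins, EPCAM, aldo-keto reductases and others) had at least 10 counts in every one of the 4 libraries, with summed counts of 8216 to 10844. Summed counts of 8 immune markers were 24 to 36, with CD3D and LYZ at 0, those of 6 fibroblast markers 33 to 51, those of 5 endothelial markers 9 to 12 and those of 8 alveolar type 2 markers 148 to 197. Levels below are CPM, counts scaled to a common library size by TMM, in the order replicate 1 and replicate 2, and are not corrected for length, so they are compared between libraries and not between genes. Because PRO-seq here is a measure of bulk cells, fewer cells transcribing a gene and less transcription per cell cannot be told apart.

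After 2 days of GSK591 a small share of the genes tested was called, in both directions and mostly at less than 2-fold. With few libraries, the share called is not the share of genes that changed. At an adjusted p under 0.05 (edgeR quasi-likelihood test), 1283 of 22919 genes were called, 5.60% of those tested, with 729 higher (3.18%) and 554 lower (2.42%), and 4431 genes had an unadjusted p under 0.05. The median log2 fold change was 0.79 over the genes called higher and -0.66 over those called lower, and 227 and 105 of them passed 2-fold. In all 1283 both treated libraries lay beyond both untreated ones. That separation alone is common, since it was met by 26.0% of all tested genes on the higher side and 25.2% on the lower side. The count depended on each library: it was 465 and 375 without GSK591 replicate 1 or 2, and 404 and 502 without untreated replicate 1 or 2. With total counts as the only scaling, the median of all genes shifted to 0.289 and 97.4% of the 989 genes called were higher, against 56.8% with TMM, so every direction below is relative to the bulk of genes. Of the 55 genes called lower that are reported under the naming rule, 44 lost their call with this scaling, and those that kept it were TAF15, BIRC3, CDC45, ATP6V0C, NAV2, LILRB3, LOC100507156, RN7SL521P, AURKB, KLF2 and CCL2. Of the 37 called higher 2 lost it, COPRS and FTL.

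**Figure D1:**
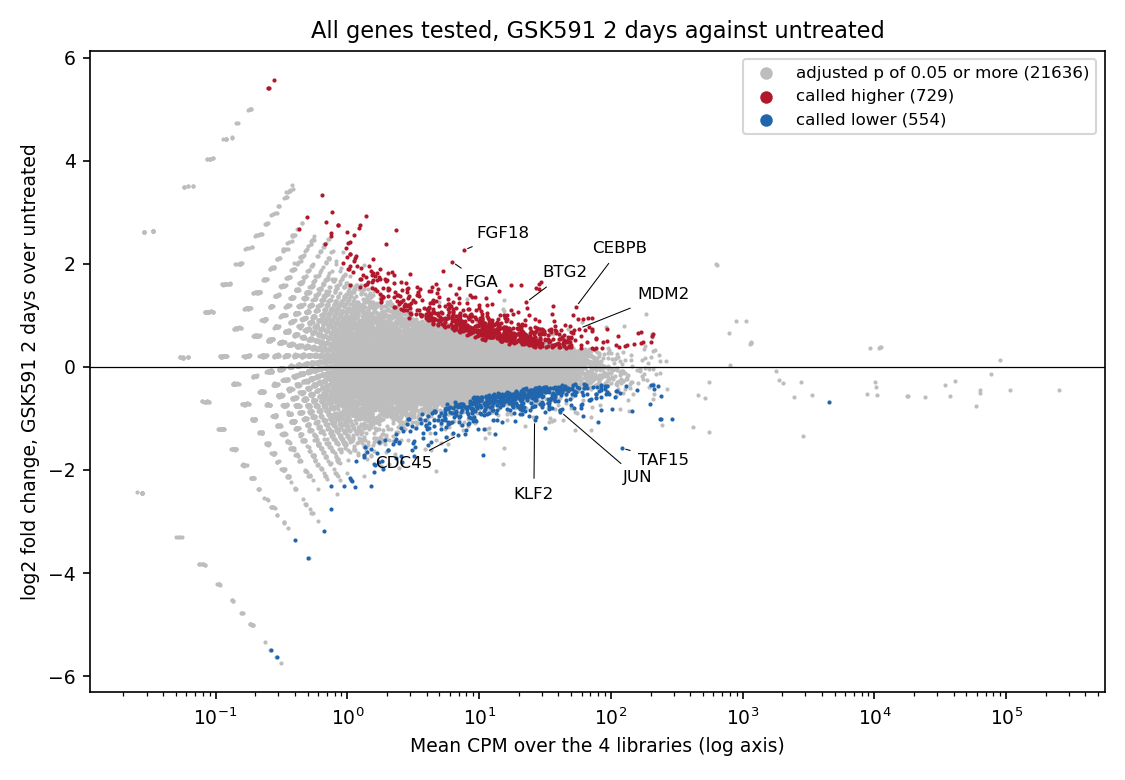
Each point is 1 of the 22919 genes tested; the x axis is the mean CPM over the 4 libraries (log axis) and the y axis the log2 fold change of GSK591 2 days over untreated. The 729 genes called higher and 554 called lower lie above and below a dense band around 0, and FGF18 and FGA stand at the top among genes above 5 CPM.

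Transcription of the inhibited enzyme itself was not distinguishable between the groups. PRMT5 had 7.88 and 8.75 CPM in untreated and 6.04 and 5.39 CPM in GSK591 libraries, without overlap, and the change of -0.55 ± 0.21 (log2 ± SE, n = 2 per group) had an adjusted p of 0.118. Its cofactor WDR77 stood at 2.44 and 1.81 and 2.01 and 1.15 CPM, with overlapping libraries and an adjusted p of 0.594. SNRPB had 17.8 and 19.4 CPM untreated and 14.9 and 17.7 CPM treated, with an adjusted p of 0.551, and its sign turned with total-count scaling, to 0.10. Among 12 tested members of the arginine methyltransferase family and the PRMT5 partners, 1 rose and 1 fell, 16.7% in all, against 5.60% of all genes. The list median was -0.281 (0.0029 with total-count scaling). The member that fell was PRMT1, the main Type I enzyme, at 56.0 and 55.7 CPM in untreated and 35.9 and 35.3 CPM in treated libraries, a log2 change of -0.65 ± 0.11 with an adjusted p of 1.76e-04. Its exons overlap 1 gene on each strand, and its call was lost with total-count scaling. The member called higher was COPRS, which binds PRMT5 on chromatin, with 15.5 and 13.3 and 38.6 and 25.1 CPM, but its adjusted p of 0.0486 rose above the threshold without any 1 of the 4 libraries, to between 0.0658 and 0.329. In the authors' deposited table COPRS had -0.13, the opposite sign, and PRMT1 -0.61. The inhibitor acts on the activity of the PRMT5 protein, so counts of these genes do not check the labels.

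Target genes of p53, the transcription factor that MDM2 and MDM4 restrain, had more members called higher than any other of the gene lists used here. Both treated libraries lay above both untreated ones in 20 of 30 tested targets, where 26.0% of all genes did. Of the 30, 12 rose and 0 fell, against 3.18% and 2.42% of all genes, with a median log2 fold change of 0.458 against 0. The count was 9 and 6 without GSK591 replicate 1 or 2 and 8 and 9 without untreated replicate 1 or 2. BTG2, an antiproliferative cofactor of mRNA decay (chr1:203305491-203309602), had 13.4 and 13.5 CPM in untreated and 29.8 and 34.3 CPM in GSK591 libraries, so that both treated libraries were over 2-fold above both controls. Its log2 fold change was 1.25 ± 0.17 with an adjusted p of 1.26e-05. CDKN1A, which encodes the CDK inhibitor p21 (chr6:36676460-36687339), went from 10.3 and 11.1 CPM to 20.1 and 21.0 CPM, a change of 0.94 ± 0.16 (adjusted p = 1.26e-04). MDM2, the E3 ligase that p53 induces and that degrades it (chr12:68808176-68850686), had 43.4 and 42.2 CPM and 72.2 and 71.2 CPM, a change of 0.74 ± 0.11 (adjusted p = 2.91e-05). Exons of MDM2 overlap annotated genes on both strands, and those of CDKN1A 1 gene on the opposite strand. GDF15, a stress-induced secreted factor, stood at 45.4 and 52.4 CPM untreated and 91.7 and 98.2 CPM treated, a change of 0.96 ± 0.12. SPATA18, a mitochondrial quality control gene, had 2.77 and 2.41 CPM and 5.36 and 7.34 CPM, with a change of 1.30 ± 0.27, and its adjusted p was 0.00191, 0.117 without GSK591 replicate 2 and 0.0505 without untreated replicate 2. The other members called higher were BAX, FDXR, PHLDA3, PLK2, PLK3, RPS27L and SESN2.

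MDM4 had 17.4 and 14.0 CPM and 12.6 and 15.9 CPM, with overlapping libraries and an adjusted p of 0.766, and its sign turned in 4 of the alternatives. A PRO-seq gene count says nothing of how the MDM4 transcript was spliced. In the authors' deposited table, the log2 fold changes were 0.80 for MDM2, 0.97 for CDKN1A, 1.09 for GDF15 and 1.64 for SPATA18, all with adjusted p under 0.05 there.

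At the same dose and time, 12 of the 30 p53 targets were higher with GSK591 than with MS023 and 0 were lower, where 1.10% and 1.55% of all tested genes were called higher and lower between the inhibitors (2.66% in all). MDM2 was at 38.5 and 39.2 CPM in the MS023 libraries, below both untreated libraries, and differed from GSK591 by 0.88 ± 0.11 (adjusted p = 6.85e-07). BTG2 was at 18.6 and 17.3 CPM with MS023, which put it between the groups, with a difference of 0.84 ± 0.16 (adjusted p = 0.00139). For CDKN1A, at 13.2 and 11.6 CPM with MS023, the difference was 0.73 ± 0.15 (adjusted p = 0.00218). GDF15 was an exception, with 95.3 and 106 CPM under MS023 and a difference of -0.08 ± 0.11 (adjusted p = 0.848). Between 2 and 4 days of GSK591, 0 of the 30 targets rose and 1 fell, against 1.14% and 2.25% of all genes (3.39% in all). MDM2 stood at 79.5 and 84.6 CPM at 4 days and 112 and 147 CPM at 7 days, with no call from 2 to 4 days (adjusted p = 0.415), and BTG2 at 30.1 and 33.9 and 33.9 and 32.1 CPM. These comparisons share libraries with the one against untreated cells. With total-count scaling 74 genes were called between 2 and 4 days, against 778, and of the genes called between the inhibitors 4.29% were higher with GSK591, against 41.5%.

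**Figure D2:**
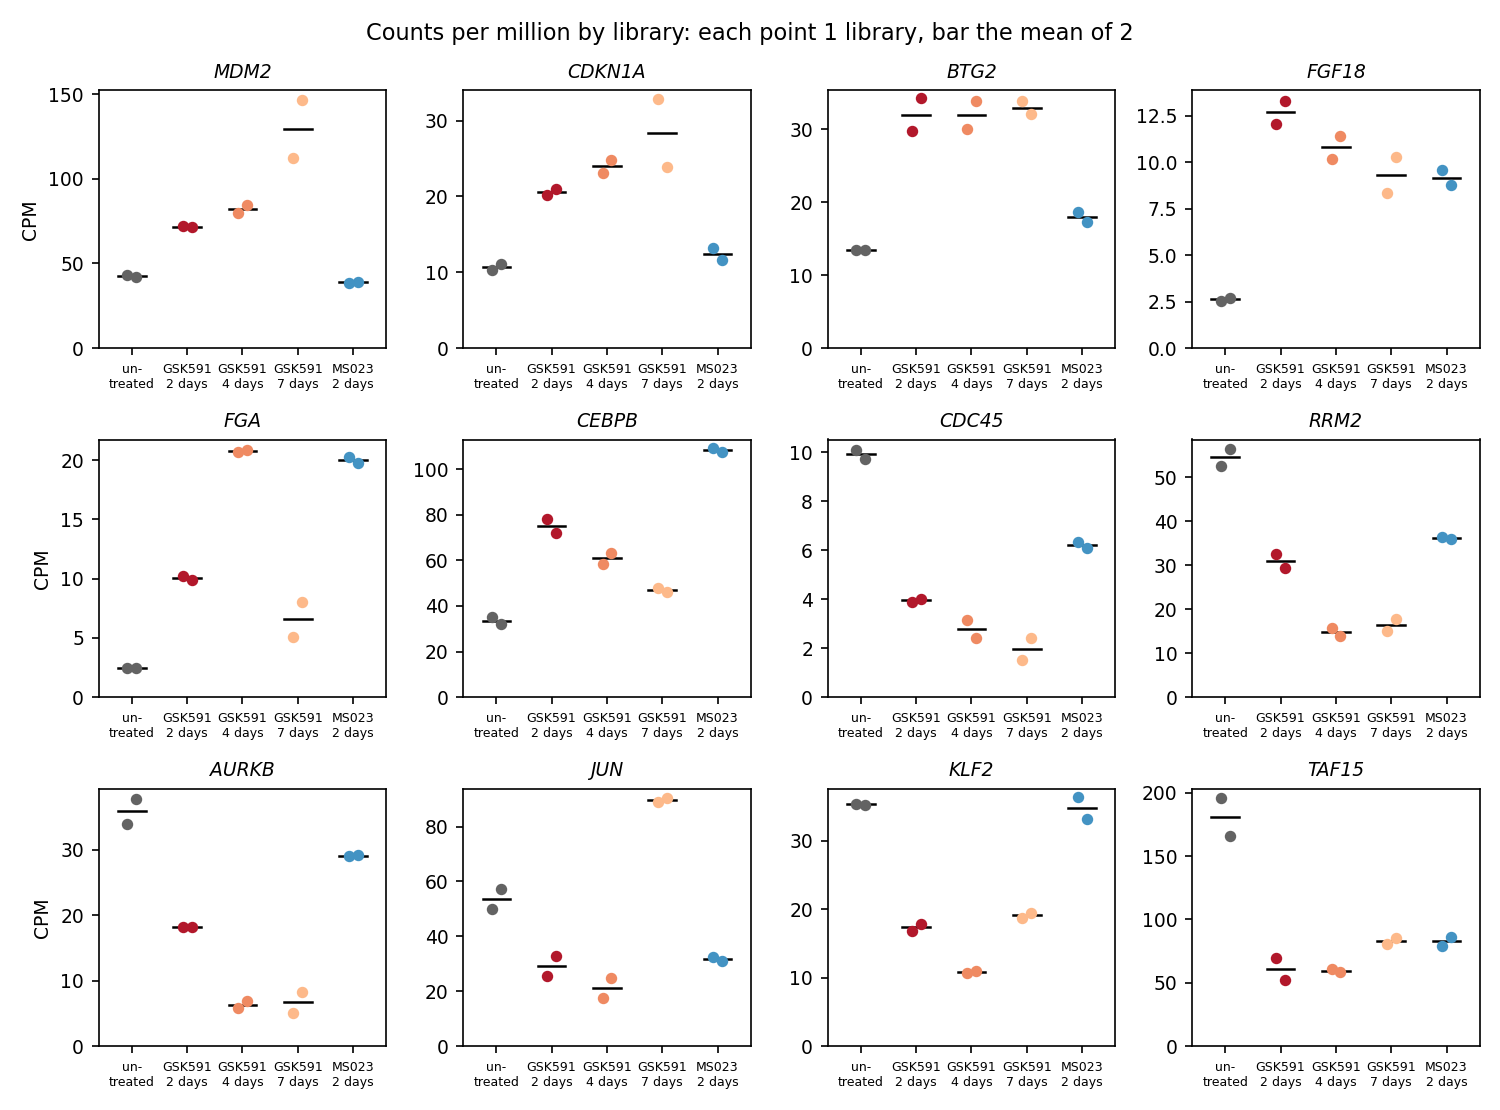
CPM of 12 genes (y axes, from 0) in the 2 libraries of each of 5 groups (x axes); points are libraries and bars the mean of 2. MDM2, CDKN1A and BTG2 are higher in the GSK591 libraries than in both the untreated and the MS023 libraries, while CDC45, RRM2 and AURKB are lower in the GSK591 2-day libraries than in the controls, and RRM2 and AURKB lower again at 4 days.

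Genes of DNA replication had calls in the lower direction alone. In 31 of 48 tested members of the replication and G1/S list both treated libraries lay below both controls, where 25.2% of all genes did. The list had a median log2 fold change of -0.39. Of the 48, 12 were called lower and 0 higher, against 2.42% and 3.18% of all genes. Only 1 of these calls was made with total-count scaling, where the median was -0.0988, and the count was 5 without GSK591 replicate 1, 5 without GSK591 replicate 2, 5 without untreated replicate 1 and 7 without untreated replicate 2. The members called were MCM4, MCM5 and MCM7 of the replicative helicase, its loaders and activators CDC45, GINS4 and ORC1, the polymerase genes POLD1 and POLE, RRM2, UHRF1, CHAF1A and CDC25A. CDC45, a core part of the active helicase (chr22:19479459-19520612), had 10.1 and 9.75 CPM in untreated and 3.89 and 4.01 CPM in GSK591 libraries. The fall was -1.32 ± 0.24 on the log2 scale (adjusted p = 4.31e-04), and the authors' deposited table gives -0.55. RRM2, the regulated subunit of ribonucleotide reductase, which makes the deoxynucleotides for replication (chr2:10120698-10131419), had 52.6 and 56.5 CPM and 32.6 and 29.4 CPM, a change of -0.82 ± 0.12 (adjusted p = 9.43e-06). POLE, the catalytic subunit of the leading strand polymerase (chr12:132623753-132687365), had 37.5 and 36.5 CPM and 23.5 and 22.5 CPM, a change of -0.69 ± 0.13 (adjusted p = 6.60e-04). GINS4 had 17.6 and 11.0 CPM and 6.84 and 7.92 CPM and ORC1 6.77 and 7.44 CPM and 4.69 and 3.56 CPM, and the adjusted p of ORC1, 0.0462, rose to between 0.0886 and 0.401 in the 4 fits that left out 1 library. That of GINS4, 0.00327, was 0.0703 without GSK591 replicate 1 and 0.263 without untreated replicate 1.

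The promoter windows of 3 of these genes and of BTG2 are printed because their levels are given in full here, with genes that fell beside 1 that rose, and because each holds a CCAAT match. They are from RefSeq (GRCh38.p14), each 300 bases from 250 before to 50 after the start site, on the strand of the gene: CDC45 (chr22:19479670-19479969, + strand), RRM2 (chr2:10122489-10122788, + strand), POLE (chr12:132687293-132687592, - strand) and BTG2 (chr1:203305269-203305568, + strand). Capitals mark each CCAAT on either strand, the box read by the factor NF-Y, and each of the E2F site forms TTTCCCGC, TTTGGCGC and TTTCGCGC on either strand.
CDC45: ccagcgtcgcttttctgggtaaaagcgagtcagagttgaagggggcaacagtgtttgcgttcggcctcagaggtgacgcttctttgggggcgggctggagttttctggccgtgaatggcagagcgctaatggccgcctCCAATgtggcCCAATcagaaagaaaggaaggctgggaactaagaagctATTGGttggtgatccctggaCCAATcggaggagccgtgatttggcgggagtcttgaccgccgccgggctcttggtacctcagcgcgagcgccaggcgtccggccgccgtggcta
RRM2: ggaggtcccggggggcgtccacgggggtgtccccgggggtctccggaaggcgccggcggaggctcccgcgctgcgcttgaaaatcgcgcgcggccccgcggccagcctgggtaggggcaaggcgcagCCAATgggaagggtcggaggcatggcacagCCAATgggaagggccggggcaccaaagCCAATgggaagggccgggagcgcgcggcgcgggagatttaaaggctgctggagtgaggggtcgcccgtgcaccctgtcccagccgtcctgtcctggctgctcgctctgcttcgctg
POLE: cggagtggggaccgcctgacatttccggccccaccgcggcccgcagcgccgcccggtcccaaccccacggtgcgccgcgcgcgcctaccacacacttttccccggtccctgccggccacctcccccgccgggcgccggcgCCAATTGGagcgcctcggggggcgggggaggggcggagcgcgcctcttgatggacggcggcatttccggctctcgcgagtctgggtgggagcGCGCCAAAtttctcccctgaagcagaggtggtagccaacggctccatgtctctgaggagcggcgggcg
BTG2: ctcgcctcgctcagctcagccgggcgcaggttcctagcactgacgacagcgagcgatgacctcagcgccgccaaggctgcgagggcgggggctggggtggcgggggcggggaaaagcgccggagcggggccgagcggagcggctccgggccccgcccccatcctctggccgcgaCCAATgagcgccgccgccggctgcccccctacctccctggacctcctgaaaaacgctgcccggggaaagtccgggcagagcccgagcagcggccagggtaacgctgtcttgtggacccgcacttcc
The CDC45 window held 4 CCAAT matches, 3 on the strand of the gene, which began 112, 102 and 44 bases before the start site, and 1 on the other strand. The RRM2 window held 3, beginning 123, 93 and 66 bases before the start. The POLE window held a pair that share 2 bases, beginning 110 and 107 bases before the start, and 1 E2F form. The BTG2 window held 1, beginning 76 bases before the start.

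A window was found for 39 of the 44 replication genes outside chromosome 8 and for 11922 of 14475 protein-coding genes tested there (82.4%). Chromosome 8 was not used for this. CCAAT lay in 53.8% of the replication windows, 77.5% of 40 mitosis windows, 50% of 26 windows of p53 targets and 35.9% of all, so it was also frequent in a list whose calls were all higher. The 3 E2F forms were in 25.6%, 23.1% and 12.8% of replication windows, 7.69%, 3.85% and 0% of p53 target windows and 2.41%, 1.01% and 0.981% of all. None of the 3 E2F forms was in the windows of CDC45, RRM2 and BTG2. Over every protein-coding gene called lower, 356 with a window, the shares were 43.0% for CCAAT and 4.49%, 1.40% and 2.25% for the E2F forms, and over 456 genes called higher 39.7%, 1.32%, 0.658% and 0.658%. The GC box GGGCGG was in 69.7% of windows of genes called lower, 73.7% of those called higher and 67.7% of all. A match is a string of letters and not a measured binding site.

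More replication genes were called lower from 2 to 4 days. From 2 to 4 days of GSK591, 22 of the 48 fell further and 0 rose, with a median of -0.802, against 2.25% of all genes called lower. RRM2 was at 15.7 and 13.9 CPM at 4 days, under both 2-day libraries, with a further change of -1.06 ± 0.13 (adjusted p = 1.33e-07), and at 15.0 and 17.8 CPM at 7 days. CDC45 was at 3.16 and 2.40 CPM at 4 days and 1.51 and 2.41 CPM at 7 days, and its change from 2 to 4 days was not called (adjusted p = 0.429). Against MS023 at 2 days, 2 of the 48 were lower with GSK591, MCM5 and POLD1. CDC45 had 6.34 and 6.08 CPM and RRM2 36.5 and 36.0 CPM under MS023, between the untreated and the GSK591 libraries, and neither difference passed (adjusted p = 0.199 and 0.391). The differences were -0.65 ± 0.26 and -0.23 ± 0.12, so a lack of a call does not show that the inhibitors acted alike.

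Genes of mitosis had a median log2 change of -0.453 at 2 days (-0.163 with total-count scaling). Few passed the test: 2 of 47 were called lower and 1 higher, 6.38% in all, near the 5.60% of all genes. In 30 of the 47 both treated libraries lay below both controls, where 25.2% of all genes did. AURKB, the kinase of the chromosomal passenger complex (chr17:8204733-8210600), had 34.0 and 37.7 CPM in untreated and 18.1 and 18.2 CPM in GSK591 libraries, about 2-fold apart, a change of -0.98 ± 0.13 (adjusted p = 3.40e-06). It was at 5.75 and 6.90 CPM at 4 days, a further -1.52 ± 0.16 (adjusted p = 3.80e-09), and at 29.0 and 29.2 CPM under MS023. BIRC5, which encodes survivin of the same complex, had 27.7 and 28.1 CPM and 20.4 and 19.7 CPM (adjusted p = 0.0302), and its adjusted p lay between 0.133 and 0.203 in the 4 fits that left out 1 library. CENPA, the centromeric histone H3, went the other way, from 22.6 and 23.2 CPM to 38.2 and 37.3 CPM, a rise of 0.72 ± 0.14 (adjusted p = 0.00107), but the authors' deposited table gives -0.10, and an exon of another gene overlaps it on the same strand. From 2 to 4 days 12 of the 47 fell and 0 rose, against 2.25% and 1.14% of all genes. In the mitosis list, 67.5% of 40 windows held TTTGAA, the cell cycle homology region, against 9.86% of all and 2.56% in the replication list.

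The 37 tested genes of homologous recombination and Fanconi repair had a median of -0.294 (-0.0128 with total-count scaling). Of these 1 was called lower and 0 higher, 2.7%, below the 5.60% of all genes. Replication-dependent histone genes, whose transcription peaks in S phase, had 5 called lower and 0 higher of 27, with a median of -0.208 (0.0891 with total-count scaling), and the count was 0 without GSK591 replicate 1 or without untreated replicate 2, 1 without GSK591 replicate 2 and 2 without untreated replicate 1. Over all genes tested 2.42% were called lower and 3.18% higher at 2 days. H1-5 had 37.8 and 44.8 CPM in untreated and 23.1 and 27.4 CPM in GSK591 libraries, a change of -0.71 ± 0.18. H1-3 had 77.5 and 93.7 CPM and 49.6 and 61.5 CPM, a change of -0.62 ± 0.17. H4C1 was at 30.7 and 35.5 and 24.3 and 20.9 CPM and H1-2 at 126 and 134 and 87.6 and 101 CPM. Histone copies are similar in sequence, so their reads may be shared. These genes separated the inhibitors: 17 of the 27 were lower with GSK591 than with MS023, where 1.55% of all genes were. H1-5 had 50.2 and 57.9 CPM under MS023, above both controls, and the difference was -1.10 ± 0.18 (adjusted p = 6.28e-04). From 2 to 4 days 23 of the 27 fell, where 2.25% of all genes did, H1-5 to 9.87 and 15.1 CPM.

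**Figure D3:**
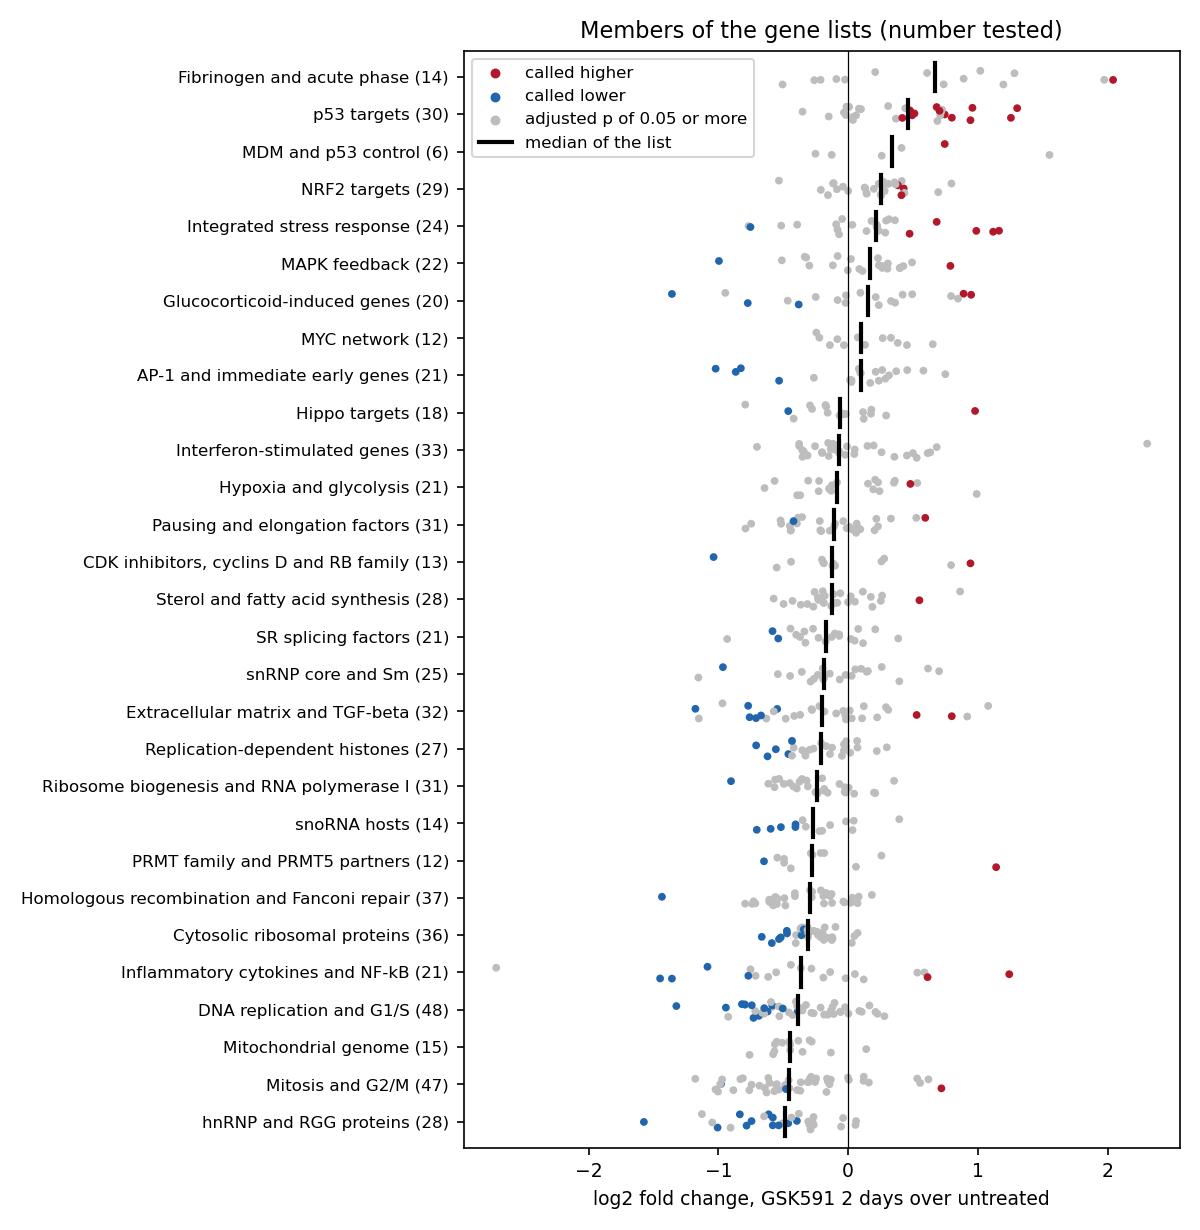
Each point is a tested member of 1 of 29 gene lists (rows, number tested in parentheses); the x axis is the log2 fold change of GSK591 2 days over untreated, colours give the call and black bars the median. The p53 list has 12 red points and no blue one, while the hnRNP and the replication lists have blue points alone among those called.

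Genes of the hnRNP and related RGG proteins had the lowest median, -0.484 (-0.194 with total-count scaling). These RNA-binding proteins of splicing and mRNA packaging include substrates of arginine methylation. Both treated libraries lay below both controls in 22 of 28 tested, where 25.2% of all genes did. Of the 28, 11 fell and 0 rose, against 2.42% and 3.18% of all genes. The count was 3 without GSK591 replicate 1, 2 without GSK591 replicate 2, 3 without untreated replicate 1 and 7 without untreated replicate 2, and 1 with total-count scaling. TAF15, an RNA-binding protein that also joins the TFIID complex (chr17:35713791-35864615), had 196 and 166 CPM in untreated and 69.7 and 52.1 CPM in GSK591 libraries, far below either control, a change of -1.57 ± 0.26 (adjusted p = 0.00220). Without GSK591 replicate 2 its adjusted p was 0.0517, and over all alternatives it ran from 1.42e-09 to 0.0517. The authors' deposited table gives -0.81. HNRNPA2B1 (chr7:26173057-26201529) had 439 and 343 CPM and 217 and 172 CPM, a change of -1.01 ± 0.27 (adjusted p = 0.0440). HNRNPA3 had 56.7 and 49.5 CPM and 31.0 and 28.6 CPM and SYNCRIP 25.4 and 20.6 CPM and 14.8 and 12.0 CPM, with changes of -0.83 ± 0.20 and -0.78 ± 0.21. The adjusted p of HNRNPA2B1 lay between 0.0840 and 0.290 in the 4 fits that left out 1 library, that of HNRNPA3 was 0.0830, 0.151 and 0.135 without GSK591 replicate 1, GSK591 replicate 2 and untreated replicate 1, and that of SYNCRIP 0.0639, 0.254 and 0.223. TAF15 and HNRNPA2B1 have exon overlaps on the opposite strand. MS023 libraries were also below both controls, with 79.2 and 86.0 CPM for TAF15, above both GSK591 libraries, and 162 and 185 CPM for HNRNPA2B1, and 1 of the 28 differed between the inhibitors. From 2 to 4 days 2 of the 28 fell, where 2.25% of all genes did.

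Splicing factors of the SR class had 2 called lower of 21, SRSF7 with 137 and 122 CPM and 88.7 and 84.7 CPM and TRA2B with 31.6 and 38.1 CPM and 24.8 and 23.3 CPM, changes of -0.58 ± 0.11 and -0.54 ± 0.13. In the authors' deposited table SRSF7 had 0.0701, near 0. TRA2B had adjusted p of 0.0521, 0.129 and 0.211 without GSK591 replicate 1, GSK591 replicate 2 and untreated replicate 2. Of 25 genes of the snRNP core and its assembly machinery, the PRMT5 substrate class, 1 fell, the Sm gene SNRPD1, from 8.32 and 8.64 CPM to 4.96 and 3.79 CPM, and without any 1 library its adjusted p of 0.0363 lay between 0.0873 and 0.323. The median of the list was -0.185 and turned to 0.104 with total-count scaling, and that of the SR list turned from -0.174 to 0.128. The shares called were 4.0% of the snRNP list and 9.52% of the SR list, against 5.60% of all genes.

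Most genes of U2, 4 of U1 and 1 of U5, RNA parts of the snRNPs, were called higher. Among all gene types, annotated snRNA genes had the largest share called, 17 of 62 (27.4%), all higher, and this group was chosen after its values were seen. The count was 8 and 9 without GSK591 replicate 1 or 2 and 6 and 7 without untreated replicate 1 or 2. U2 made up most of it: 12 of 14 U2 genes rose, by 0.51 to 0.75 on the log2 scale over the family, and 13 of the 14 lie on chromosome 17. In the same order of left-out libraries the U2 count was 7, 9, 5 and 7. RNU2-1 had 22.9 and 24.0 CPM in untreated and 36.2 and 32.9 CPM in GSK591 libraries, a change of 0.56 ± 0.14 (adjusted p = 0.0128). These U2 genes are tandem, near-identical copies, so reads are shared and the copies are not independent measurements. Of 27 U1 genes 4 rose, and 1, 0, 1 and 0 in those fits. RNU1-1 had 26.6 and 25.5 CPM and 39.2 and 41.4 CPM, a change of 0.63 ± 0.14 (adjusted p = 0.00310), and RNU1-4 5.77 and 6.23 CPM and 13.9 and 13.8 CPM. The other snRNA gene called was RNU5F-1, 1 of 5 U5 genes, with 0.888 and 0.704 and 3.35 and 2.06 CPM. These levels rest on 8 and 7 counts in untreated and 25 and 18 counts in GSK591 libraries. With DESeq2 0 of the U5 genes were called. The 9 annotated U6 entries, most of them named as pseudogene copies, had few counts. Their summed level was 5.99 and 4.83 CPM in untreated and 3.22 and 5.05 CPM in GSK591 libraries. Of the 9, 0 were called in edgeR or in DESeq2 and 1 had an unadjusted p under 0.05. At so few counts a lack of calls does not show that U6 was unchanged. MS023 gave like levels, 47.5 and 48.1 CPM for RNU1-1 and 34.0 and 27.6 CPM for RNU2-1. Summed over the 27 U1 genes the level was 163 and 170 CPM in untreated, 249 and 251 CPM in GSK591 and 269 and 264 CPM in MS023 libraries. At 4 days RNU2-1 was at 22.4 and 23.6 CPM, level with the controls, and at 7 days at 10.1 and 9.36 CPM, below them.

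**Figure D4:**
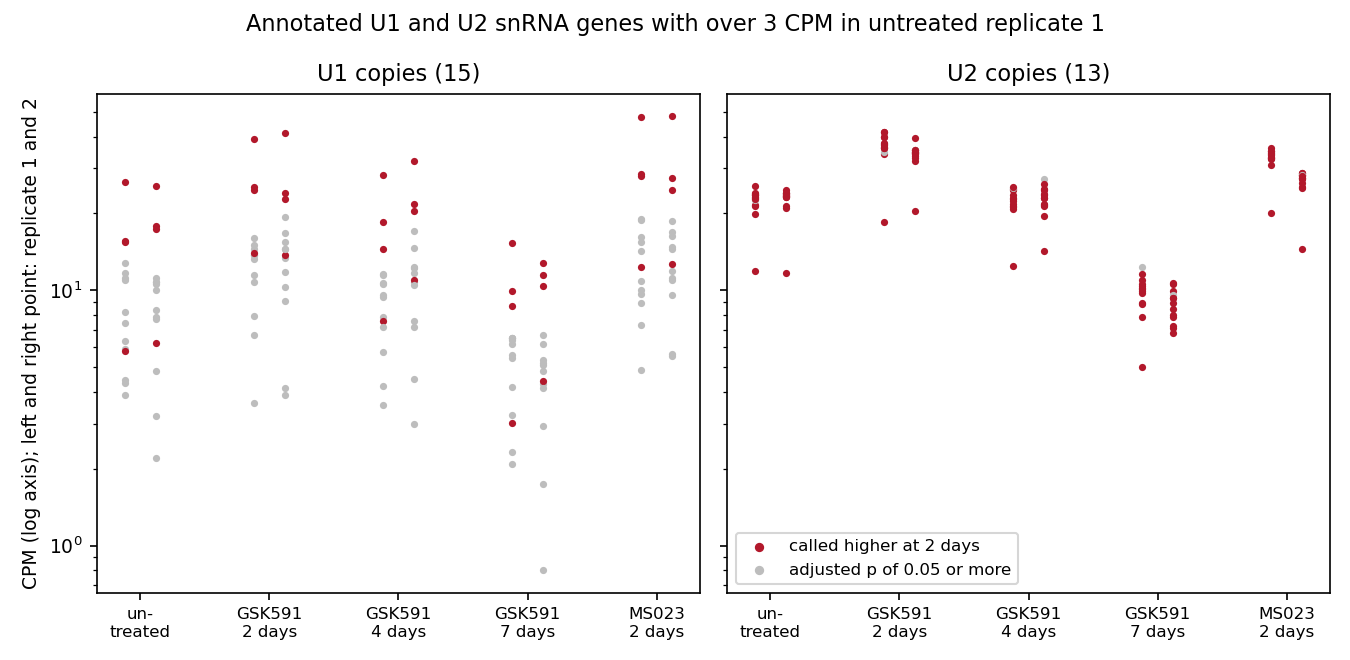
CPM (log axis) of 15 U1 and 13 U2 genes with over 3 CPM in untreated replicate 1, in the 2 libraries of 5 groups; each point is 1 gene in 1 library, red where called higher at 2 days. The summed U2 level is 289 and 294 CPM untreated, 475 and 440 CPM with GSK591 at 2 days and 128 and 115 CPM at 7 days.

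Cytosolic ribosomal protein genes and the snoRNA host genes, many of which begin with the same pyrimidine-rich tract, also had calls in the lower direction alone. Of 36 ribosomal protein genes 9 fell, against 2.42% of all genes, with a median of -0.306 (-0.0187 with total-count scaling). In 31 both treated libraries lay below both controls, where 25.2% of all genes did. RPL11 had 24.3 and 27.1 CPM in untreated and 15.3 and 17.1 CPM in treated libraries, RPL32 39.5 and 50.6 and 30.2 and 29.8 CPM, RPS12 17.8 and 20.1 and 12.7 and 13.4 CPM and RPS23 87.8 and 94.9 and 61.6 and 65.8 CPM, with changes of -0.67 ± 0.19, -0.59 ± 0.12, -0.53 ± 0.15 and -0.52 ± 0.11. Of 14 snoRNA hosts 5 fell, against 2.42% of all genes, with a median of -0.274 (0.0138 with total-count scaling). GAS5 had 91.8 and 89.3 CPM and 64.2 and 62.2 CPM, a change of -0.52 ± 0.11 (adjusted p = 0.00172), and SNHG5 29.1 and 32.3 CPM and 19.9 and 17.9 CPM, a change of -0.70 ± 0.13. SNHG17 and SNHG1 changed by -0.60 ± 0.14 and -0.41 ± 0.13. Exons of SNHG1 overlap 7 genes on the same strand. DESeq2 ended the calls of SNHG1, RPS12 and RPL11 (adjusted p = 0.109, 0.0825 and 0.0535). In the authors' deposited table SNHG1, SNHG5 and RPS12 had -0.0240, -0.0286 and 0.0564, near 0, with no adjusted p for SNHG5. SNHG17, RPS23 and RPL32 had -0.47, -0.46 and -0.25 there. None of the 9 ribosomal and 5 host calls was made with total-count scaling. The ribosomal count was 1 and 3 without GSK591 replicate 1 or 2 and 4 and 2 without untreated replicate 1 or 2, and the host count 2, 2, 3 and 2 in the same order. From 2 to 4 days 15 ribosomal genes and 7 hosts fell, where 2.25% of all genes did, and none rose. GAS5 and SNHG1 were also lower with GSK591 than with MS023, by -0.50 ± 0.11 and -0.48 ± 0.12 (adjusted p = 0.00343 and 0.0194). Of 31 genes of ribosome biogenesis and RNA polymerase I, 1 fell and 0 rose, 3.23%, against 5.60% of all genes. It was PPAN, from 5.66 and 5.83 CPM to 1.88 and 4.13 CPM, with 14 and 36 counts in the GSK591 libraries. Its exons overlap 2 genes on the same strand. DESeq2 and total-count scaling ended its call (adjusted p = 0.0877 and 0.310). Its log2 change of -0.90 was -0.47 without GSK591 replicate 1. The list had a median of -0.238, which turned to 0.0405 with total-count scaling.

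Genes of the integrated stress response, driven by ATF4 when translation initiation is limited, had a median of 0.218. Of the 24, 5 were called higher and 1 lower, 25.0% in all, against 5.60% of all genes. These 6 calls were 6 and 3 without GSK591 replicate 1 or 2 and 4 and 6 without untreated replicate 1 or 2. CEBPB, a bZIP transcription factor (chr20:50190734-50192689), had 35.0 and 32.1 CPM in untreated and 78.2 and 71.8 CPM in GSK591 libraries, a rise of 1.16 ± 0.13 (adjusted p = 6.18e-08). CHAC1, which degrades glutathione, rose from 6.88 and 8.54 CPM to 14.2 and 16.4 CPM, by 0.99 ± 0.17 (adjusted p = 2.46e-04). NUPR1, a stress-induced chromatin protein, went from 4.88 and 5.73 CPM to 9.39 and 13.5 CPM, by 1.12 ± 0.21, and its adjusted p of 5.96e-04 was 0.0932 without GSK591 replicate 2. DDIT4 and SESN2 rose too, and STC2, which encodes a secreted glycoprotein, fell from 21.9 and 23.2 CPM to 14.1 and 12.7 CPM, by -0.75 ± 0.15 on the log2 scale. Levels were higher still under MS023 for 3 of them: CEBPB was at 109 and 108 CPM, CHAC1 at 23.4 and 22.6 CPM and NUPR1 at 17.6 and 18.5 CPM, and GSK591 minus MS023 was -0.53 ± 0.12, -0.58 ± 0.15 and -0.64 ± 0.17 (adjusted p = 0.00604, 0.0208 and 0.0296). In all, 5 of the 24 were lower with GSK591 than with MS023, where 1.55% of all genes were.

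Targets of NRF2, the transcription factor of the oxidative stress response, had 3 called higher and 0 lower of 29, against 3.18% and 2.42% of all genes. TKT had 95.1 and 90.8 CPM and 125 and 125 CPM and ALDH3A1 103 and 116 CPM and 137 and 154 CPM. FTL had 101 and 98.7 CPM and 125 and 136 CPM. The changes of these 3 genes were 0.43 ± 0.11, 0.41 ± 0.11 and 0.38 ± 0.11. The count was 1 without GSK591 replicate 1, 0 without GSK591 replicate 2, 0 without untreated replicate 1 and 1 without untreated replicate 2. It was 10 when the share of processed pseudogenes was a covariate. None of 33 interferon-stimulated genes was called in edgeR or in DESeq2, with 4 at an unadjusted p under 0.05. STAT2 had 5.44 and 5.93 CPM and 8.45 and 7.68 CPM (adjusted p = 0.199) and IRF7 19.4 and 17.3 CPM and 14.6 and 13.7 CPM (adjusted p = 0.123). Of these genes 8 were lower with GSK591 than with MS023, where 1.55% of all genes were. Likewise 0 of 12 genes of the MYC network were called by either tool, with 1 at an unadjusted p under 0.05, MXI1, at 5.10 and 5.63 and 7.91 and 8.95 CPM. MLXIP had 33.7 and 36.4 and 45.9 and 38.7 CPM.

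Signal-responsive genes changed in both directions. Of 21 immediate early and AP-1 genes 4 fell and 0 rose, against 2.42% and 3.18% of all genes. The list median was nonetheless 0.097, and with total-count scaling KLF2 alone was called. KLF2, a zinc finger factor (chr19:16324817-16327874), had 35.4 and 35.3 CPM in untreated and 16.9 and 17.9 CPM in GSK591 libraries, about 2-fold lower, a change of -1.02 ± 0.16 (adjusted p = 5.26e-05). It was at 36.4 and 33.1 CPM under MS023, level with the controls, and GSK591 minus MS023 was -0.997 ± 0.16 (adjusted p = 5.74e-05). JUN had 49.8 and 57.2 CPM and 25.6 and 32.9 CPM, FOSL1 27.5 and 26.2 CPM and 15.0 and 15.3 CPM and KLF6 57.6 and 61.7 CPM and 42.8 and 39.8 CPM, with changes of -0.87 ± 0.13, -0.83 ± 0.15 and -0.53 ± 0.11. The adjusted p of KLF6 was 0.0760 without GSK591 replicate 2 and 0.0534 without untreated replicate 2. JUN went on to 17.4 and 24.7 CPM at 4 days and stood at 89.0 and 90.2 CPM at 7 days, above the controls. In the MAPK list of 22, 1 fell and 1 rose, 9.09% in all, against 5.60% of all genes. EREG fell from 13.3 and 9.95 CPM to 5.77 and 5.85 CPM. SPRY1, a feedback inhibitor, rose from 4.55 and 4.52 CPM to 7.38 and 8.26 CPM. Without untreated replicate 1 the adjusted p was 0.114 for EREG, and for SPRY1 it lay between 0.0618 and 0.207 without any 1 library.

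Of 21 inflammatory and NF-kB genes 4 fell and 2 rose, 28.6% in all, against 5.60% of all genes. The list median was -0.365 (-0.0654 with total-count scaling). These 6 calls were 5 and 4 without GSK591 replicate 1 or 2 and 3 and 5 without untreated replicate 1 or 2. BIRC3, an NF-kB target that blocks cell death (chr11:102317450-102339403), had 9.21 and 7.04 CPM in untreated and 2.95 and 3.33 CPM in GSK591 libraries, a change of -1.36 ± 0.28 (adjusted p = 0.00254, and 0.0603 without untreated replicate 1). The chemokine gene CCL2 had 5.99 and 6.53 CPM and 2.41 and 2.18 CPM, a change of -1.45 ± 0.28 (adjusted p = 6.75e-04), and RELB, an NF-kB subunit, 12.2 and 10.4 CPM and 5.77 and 4.93 CPM, a change of -1.08 ± 0.23, with adjusted p of 0.0805 without GSK591 replicate 2 and 0.0550 without untreated replicate 1. PTGS2, the inducible prostaglandin synthase, rose from 4.44 and 5.13 CPM to 10.6 and 12.0 CPM, by 1.24 ± 0.21 (adjusted p = 1.80e-04). BIRC3 was back at 7.47 and 7.30 CPM at 4 days, a change of 1.23 ± 0.28 from 2 days (adjusted p = 0.00842).

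Genes of extracellular matrix and TGF-beta signalling had 6 called lower and 2 higher of 32, against 2.42% and 3.18% of all genes. Their median was -0.203 (0.0829 with total-count scaling). With total-count scaling 1 was called lower and 2 higher. That scaling ended the calls of COL5A1 and LOXL2 (adjusted p = 0.283 for both). COL5A1 had 27.0 and 22.5 CPM and 14.5 and 14.7 CPM and LOXL2 30.0 and 25.4 CPM and 18.1 and 14.4 CPM, with changes of -0.76 ± 0.15 and -0.77 ± 0.21, and BMP4 rose from 4.99 and 5.93 CPM to 11.8 and 7.46 CPM. BMP4 had an adjusted p of 0.428, 0.194 and 0.0606 without GSK591 replicate 1, untreated replicate 1 and untreated replicate 2, and LOXL2 one between 0.0532 and 0.267 without any 1 library. The count of the list was 4 and 3 without GSK591 replicate 1 or 2 and 2 and 4 without untreated replicate 1 or 2. Of 18 Hippo targets 1 rose and 1 fell, 11.1% in all, against 5.60% of all genes. F3 rose from 3.11 and 3.72 CPM to 7.24 and 6.31 CPM, and AXL fell from 46.8 and 43.7 CPM to 32.3 and 33.4 CPM. F3 had an adjusted p between 0.0799 and 0.195 without any 1 library, and AXL 0.0974, 0.0683 and 0.119 without GSK591 replicate 1, GSK591 replicate 2 and untreated replicate 1.

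No cell received dexamethasone in this comparison, yet genes that glucocorticoids induce in this line were among those called, 2 higher and 3 lower of 20, and 3 to 4 in all without any 1 library. The calls with all libraries were 25.0% of this list, against 5.60% of all genes. CEBPD (chr8:47736909-47739086) rose from 44.5 and 47.0 CPM to 91.2 and 85.5 CPM, by 0.95 ± 0.16 (adjusted p = 0.00102). KLF9 rose from 8.32 and 6.53 CPM to 13.4 and 14.0 CPM. ANGPTL4, an inhibitor of lipoprotein lipase, fell from 24.4 and 25.6 CPM to 14.2 and 15.0 CPM, by -0.77 ± 0.14, and BIRC3 is also on this list. The adjusted p of KLF9, 0.0174, was 0.0836, 0.145 and 0.193 without GSK591 replicate 1, GSK591 replicate 2 and untreated replicate 2. Of 31 pausing and elongation factors 1 rose and 1 fell, a share of 6.45% that is near the 5.60% of all genes. HEXIM1, which holds P-TEFb inactive in the 7SK complex (chr17:45148502-45152101), rose from 94.9 and 86.5 CPM to 132 and 142 CPM, by 0.59 ± 0.11 (adjusted p = 4.99e-04), and was back at 89.2 and 91.8 CPM at 4 days, a change of -0.60 ± 0.11 (adjusted p = 4.93e-04). POLR2A, the largest subunit of RNA polymerase II, fell from 105 and 103 CPM to 82.9 and 72.5 CPM, by -0.42 ± 0.10 (adjusted p = 0.00856), with adjusted p of 0.212, 0.0862 and 0.0606 without GSK591 replicate 2, untreated replicate 1 and untreated replicate 2. CA12 was the 1 hypoxia gene of 21 called higher, at 73.0 and 72.1 and 104 and 97.8 CPM, with adjusted p between 0.136 and 0.210 without any 1 library. In the list of CDK inhibitors, D cyclins and RB family genes, RBL1, the pocket protein p107, fell from 5.77 and 6.43 CPM to 3.22 and 2.75 CPM beside the rise of CDKN1A, with adjusted p between 0.115 and 0.280 without any 1 library. Of the mitochondrial genome's 15 genes 0 were called in edgeR and 1 in DESeq2, with 2 at an unadjusted p under 0.05. ND1 had 78720 and 69010 CPM and 47110 and 40140 CPM (adjusted p = 0.0591). Of the 11 markers of the line, whose median was 0.127, KRT7 alone was called and fell from 298 and 271 CPM to 189 and 194 CPM, by -0.57 ± 0.10 (adjusted p = 1.15e-04, and 0.473 with total-count scaling).

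Beyond the lists, the genes with the greatest rise among protein-coding genes at 5 CPM or more were led by FGF18, a fibroblast growth factor (chr5:171419656-171457623). It had 2.55 and 2.71 CPM in untreated and 12.1 and 13.3 CPM in GSK591 libraries, more than 4-fold apart, a rise of 2.26 ± 0.28 (adjusted p = 9.89e-07). FGA, the fibrinogen alpha chain (chr4:154583126-154590766), rose from 2.44 and 2.41 CPM to 10.2 and 9.87 CPM, by 2.04 ± 0.23 (adjusted p = 5.65e-08), and was the 1 member called of 14 tested in the fibrinogen and acute phase list. FGA was higher still at 4 days, at 20.7 and 20.8 CPM, a further 1.05 ± 0.16 (adjusted p = 2.33e-05), and at 20.3 and 19.7 CPM under MS023 at 2 days, where GSK591 minus MS023 was -0.996 ± 0.16 (adjusted p = 7.81e-05), and it stood at 5.11 and 8.02 CPM at 7 days. ENPP1, a nucleotide pyrophosphatase, had 2.66 and 1.91 CPM and 10.5 and 6.19 CPM, RASL12 2.88 and 3.02 CPM and 10.7 and 7.34 CPM and the lysosomal sialidase gene NEU1 4.66 and 2.61 CPM and 10.5 and 10.4 CPM, with changes of 1.85 ± 0.33, 1.60 ± 0.26 and 1.53 ± 0.25. LAG3 had 5.33 and 4.02 CPM and 11.0 and 13.5 CPM, TDRD12 4.77 and 5.63 CPM and 14.3 and 12.5 CPM and INSL4, an insulin-like peptide gene, 5.10 and 4.83 CPM and 13.4 and 11.9 CPM. The other 4 were C17orf114, TM4SF20, DGKI and TTLL6, with changes of 1.41 ± 0.32, 1.34 ± 0.27, 1.32 ± 0.25 and 1.26 ± 0.22. C17orf114 had an adjusted p between 0.0506 and 0.121 without any 1 library, and TM4SF20 one of 0.0849 and 0.103 without GSK591 replicate 2 and untreated replicate 2.

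Among called protein-coding genes with a mean of 5 CPM or more, the greatest falls after TAF15, BIRC3 and CDC45 were in ATP6V0C, a subunit of the vacuolar proton pump, from 12.2 and 9.85 CPM to 5.10 and 3.90 CPM, and NAV2, from 8.88 and 9.15 CPM to 4.02 and 3.44 CPM, with changes of -1.30 ± 0.26 and -1.28 ± 0.22. DIO2, the deiodinase that activates thyroid hormone (chr14:80197527-80387757), fell from 14.4 and 15.8 CPM to 5.77 and 7.34 CPM, by -1.20 ± 0.21 (adjusted p = 2.78e-04), and stood at 20.4 and 18.2 CPM at 7 days, above the controls. With total-count scaling its adjusted p was 0.0579. LILRB3 had 13.2 and 14.1 CPM in untreated, 6.30 and 5.51 CPM in GSK591 and 29.7 and 26.4 CPM in MS023 libraries, so that the inhibitors lay on opposite sides of the controls, and GSK591 minus MS023 was -2.25 ± 0.19 (adjusted p = 2.79e-12). It has close paralogs that may share its reads. Further falls were in MUC12, PRR22, EMC7 and VPS8, at -1.21 ± 0.32 for MUC12, -1.14 ± 0.24 for PRR22, -1.11 ± 0.30 for EMC7 and -1.11 ± 0.28 for VPS8. Total-count scaling ended the calls of MUC12, PRR22, EMC7 and VPS8, at adjusted p of 0.123, 0.0964, 0.147 and 0.193. ATP6V0C had an adjusted p of 0.0731 without GSK591 replicate 2. MUC12 had 0.115, 0.141 and 0.476 and VPS8 0.0801, 0.132 and 0.135 without GSK591 replicate 1, GSK591 replicate 2 and untreated replicate 1, and EMC7 0.293, 0.137 and 0.108 without GSK591 replicate 2, untreated replicate 1 and untreated replicate 2.

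How the genes were counted for the authors' own table is not given in the sources used here, nor how its fold changes were fitted. Its mean signal differed from the counts here. For LILRB3 it was 0.776, where the untreated libraries here had 119 and 140 counts. For VPS8 it was 433, where they had 78 and 71 counts. In the authors' deposited table, 2020 of 28873 genes had an adjusted p under 0.05, 760 higher and 1260 lower. Of the 1000 genes called here that the authors' deposited table also lists, 397 had an adjusted p under 0.05 there, 388 of them in the same direction, and 143 of the 1000 had the opposite sign. Among the 12 named rises 6, and among the 11 named falls 6, had an adjusted p under 0.05 in the same direction in the authors' deposited table. FGF18 and FGA had 1.74 and 2.37 in the authors' deposited table. ENPP1, RASL12 and DGKI had -0.0212, 0.0444 and 0.0988, and ATP6V0C, LILRB3, EMC7 and VPS8 0.0102, 0.0156, -0.0143 and 0.0499 in the authors' deposited table, all within 0.1 of 0. For RASL12 and LILRB3 that table gives no adjusted p, so their values near 0 do not show an absence of change. What made the named genes differ from the authors' table was not tested.

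Among called genes of other types with a mean of 5 CPM or more, MIR6724-4 and MIR6724-3, neighbouring near-identical copies on chromosome 21, rose most, with 13.3 and 15.2 CPM in untreated and 39.7 and 49.2 CPM in GSK591 libraries for MIR6724-4, a change of 1.64 ± 0.28 (adjusted p = 0.00220), and 1.61 ± 0.31 for MIR6724-3, whose adjusted p was 0.0933, 0.0672 and 0.0781 without GSK591 replicate 2, untreated replicate 1 and untreated replicate 2. The MIR6724 copies lie within the ribosomal DNA repeats of chromosome 21, so their counts cannot be told from those of ribosomal precursor RNA. At 7 days the level was below the controls, at 9.16 and 7.89 CPM for MIR6724-4, and as high under MS023, at 49.1 and 41.4 CPM. The unnamed noncoding genes AL034417.4, which overlaps 2 genes on the opposite strand, and AC027117.2 rose by 1.60 ± 0.20 and 1.59 ± 0.20. AL034417.4 had 8.54 and 8.75 CPM untreated, 26.1 and 26.3 CPM with GSK591 and 15.2 and 14.5 CPM with MS023. The noncoding LOC100507156 fell from 9.32 and 7.34 CPM to 2.95 and 2.52 CPM, by -1.60 ± 0.30, and RN7SL521P, a copy of the 7SL RNA, and TPM3P9 fell by -1.29 ± 0.22 and -1.23 ± 0.23. HNRNPA3P5 is a processed pseudogene whose reads cannot be told from those of HNRNPA3, and it had 18.1 and 14.8 CPM and 4.56 and 5.39 CPM, with an adjusted p of 0.0475, and of 0.119 to 0.226 without any 1 library.

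The called protein-coding genes were shorter than those tested. The median annotated gene length was 19840 bases for 578 genes called higher, 24770 for 439 called lower and 31190 for 14978 tested, while median exonic length was 4575, 5440 and 4934 bases. The share called differed by length, but not steadily: of genes of 5 to 10 kb 5.83% were called higher and 3.34% lower. For genes of 20 to 50 kb the shares were 3.60% and 3.67%, and for 50 to 100 kb 2.48% and 2.24%. Over 200 kb they were 3.03% and 1.51%. Median CPM was 12.3 and 18.9 in the called genes and 7.95 in those tested, so the power to call differed too. By chromosome, chromosomes 17 and 19 had the highest shares called, 9.31% of 1612 and 8.34% of 1499 genes, and chromosome 13 had 1.90% of 368. On chromosome 17, 96 genes were called higher and 54 lower, and 12 of the 96 were U2 copies. Opposite-strand exon overlaps were present in 33.0% of genes called higher, 44.4% of genes called lower and 39.1% of those tested, and strand use in the counting is not given in the sources used here.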

How the data were processed

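The values used were the authors' deposited PRO-seq counts per gene in A549 cells, whole numbers that are not normalised, made with featureCounts 2.0.1 on hg38 per the submitters' processing notes. The aligner, the feature type and the use of strand are not given in the sources used here. The log2 fold changes and the adjusted p-values quoted as the authors' are from their deposited comparison table, which has DESeq2 column names per the file headers. Its mean signal per gene, p-values and standard errors, also deposited, were not used for any test.

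All 58780 identifiers matched GENCODE 29 (GRCh38), which gave types, coordinates and overlaps. Counts of all 30 libraries in 15 groups entered 1 edgeR fit (edgeR 4.0.16, limma 3.58.1, R 4.3.3; DESeq2 1.42.0 as an alternative): filterByExpr (minimum count 10, total 15), TMM scaling, quasi-likelihood test with robust fitting, 15 residual degrees of freedom, Benjamini-Hochberg over 22919 genes, threshold 0.05. The biological coefficient of variation was 10.6%. With 2 libraries a group, precision rests on this shared spread, and intervals cover no error common to a group. The fit was tested on simulated data.

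Named genes were 7 set by name, the 12 protein-coding and 4 other genes with the greatest change in each direction among called genes at a mean of 5 CPM or more whose libraries do not overlap, and up to 4 called members of each list, or 2 with the smallest p where none was called. A few genes that the rule names are not reported here. Members, lists and this rule were chosen with earlier results of these data known. Alternatives were other scalings, no filter, DESeq2, the 2 groups alone, a replicate block, no mitochondrial or ribosomal RNA genes, a processed-pseudogene covariate, and leaving out each library.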

Additional observations from a re-analysis of the deposited data

Results flagged for a closer look

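Of the 92 named genes called against untreated cells, 22 differed between GSK591 and MS023 at 2 days in the edgeR contrast of the 2 inhibitors. Between 2 and 4 days of GSK591, 20 differed. Over all genes tested the shares were 2.66% and 3.39%. The named genes were chosen by their change in the GSK591 2-day libraries, which enter both contrasts. That choice alone raises these counts, so they do not measure how often genes differed. The genes are given because the same treatment contrast gave a different size in another inhibitor or at another time. The log2 difference, GSK591 minus MS023, was 1.71 for SPATA18, 0.88 for MDM2, 0.84 for BTG2, 0.82 for AL034417.4, 0.79 for DGKI and 0.73 for CDKN1A. It was also 0.47 for ALDH3A1. On the lower side the difference was -2.25 for LILRB3, -1.10 for H1-5, -0.997 for KLF2, -0.996 for H1-3, -0.996 for FGA and -0.91 for H4C1. It was -0.88 for STC2, -0.68 for AURKB, -0.64 for NUPR1, -0.58 for CHAC1, -0.57 for H1-2 and -0.53 for CEBPB. It was -0.50 for GAS5, -0.48 for SNHG1 and -0.42 for FTL. The MS023 libraries had 62.2% and 65.0% mitochondrial counts, and the part of this in the differences was not tested.

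From 2 to 4 days of GSK591 the log2 change was 1.23 for BIRC3, 1.05 for FGA and 0.67 for ALDH3A1. Lower levels at 4 days were found with changes of -1.52 for AURKB, -1.29 for SNHG1, -1.17 for BIRC5, -1.11 for MIR6724-4, -1.06 for RRM2 and -1.02 for H1-5. Further changes were -0.90 for GINS4, -0.90 for H1-3, -0.86 for STC2, -0.69 for H4C1, -0.68 for KLF2 and -0.60 for HEXIM1. The smallest were -0.58 for H1-2, -0.50 for GAS5, -0.48 for JUN, -0.42 for RPL32 and -0.39 for FTL.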

How the results depend on the processing

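The 1283 genes called against untreated cells were 661 with DESeq2 and 2275 in a fit of the 2 compared groups alone, which estimates the spread from 4 libraries, and the cause of these moves was not tested. The 609 calls between GSK591 and MS023 were 1119 with total-count scaling, 920 with the processed-pseudogene covariate, 1106 in the 2 groups alone and 313 with DESeq2. The 778 calls between 2 and 4 days were 74 with total-count scaling, 1535 in the 2 groups alone and 430 with DESeq2. Leaving out 1 library gave 375 to 502, 223 to 273 and 212 to 351 calls for the 3 comparisons, with fewer samples in each fit and a lone sample assumed to vary like the others. Other scalings, the filter and the mitochondrial and ribosomal genes left all 3 counts within 1.5 times, total-count scaling of the last 2 apart. The replicate block gave 1358, 654 and 827 calls. Replicate numbers share only a number here: deviations of same-numbered untreated and GSK591 2-day libraries correlated with r = 0.106.

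Of the 92 named genes called, 45 kept their call under every alternative that used all 30 libraries and 31 under all alternatives run. With total-count scaling 46 lost it, and in the fits without 1 library 33 to 41 did. DESeq2 ended 11 calls, and the replicate block none. Signs turned only for genes that were not called: with total-count scaling SNRPB went to 0.10, MDM4 to 0.18 and CD14 to 0.0872, and MDM4 went to 0.0596 with the pseudogene covariate. Without 1 library MDM4 ranged from -0.316 to 0.0376, CD14 from -0.659 to 0.563, COL1A1 from -0.0845 to 0.343 and CDH5 from -0.103 to 1.51. At 2541528 to 3314381 nuclear counts per library, genes of few counts were called less often: 2.14% of genes below a mean of 5 CPM were called against untreated cells, and 9.34% of those at or above it.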

Other observations

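Gene types outside the comparison's lists differed in their medians. The 23 tested ribosomal RNA genes, which are repeated copies, had a median log2 change of 0.411 with 1 called higher, and ribosomal RNA genes held 0.267% and 0.323% of counts in untreated and 0.498% and 0.488% in GSK591 libraries. The 1591 processed pseudogenes had a median of -0.161 with 13 called higher and 15 lower. Of 54 snoRNA genes, 1 was called lower and 0 higher, and of 113 microRNA genes 7 were called higher and 0 lower. The microRNA calls include MIR6724-4 and MIR6724-3, whose counts cannot be told from those of ribosomal precursor RNA. Antisense genes, 2241 tested, had 34 called higher and 31 lower, and 1698 lincRNA genes 40 and 28. Over all genes 5.60% were called. The share was 6.19% for microRNA, 1.85% for snoRNA and 4.35% for ribosomal RNA genes. It was 2.9% for antisense genes, 4.0% for lincRNA genes and 1.76% for processed pseudogenes.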
